A study of Mus musculus with 17 samples.

Results

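Transcripts of 10 genes that gate the entry of cells into the division cycle were followed in HSPC, the hematopoietic stem and progenitor cells of mouse bone marrow that give rise to blood. The genes are the CDK inhibitors Cdkn1b, Cdkn1c and Cdkn2c, the D cyclins Ccnd1, Ccnd2 and Ccnd3, the kinases Cdk4 and Cdk6, the E cyclin Ccne1 and the retinoblastoma gene Rb1. They were taken by gene symbol from a table of 35321 genes, and all 10 were among the 14920 genes with enough counts to be tested. The 17 libraries of polyadenylated RNA came from wild-type C57BL/6J mice, whose age and sex are not given in the sources used here. The mice received phosphate-buffered saline (PBS, titled Day 0, 5 libraries) or lipopolysaccharide (LPS, an outer membrane molecule of Gram-negative bacteria that triggers inflammation), alone or together with anti-IL-10R, a blocking antibody against the receptor of the anti-inflammatory cytokine interleukin-10. Bone marrow was taken 24 h or 72 h after injection, with 3 libraries for each LPS group and time, and HSPC were sorted from it by flow cytometry with a staining scheme that the labels do not spell out. All injections were intraperitoneal. The series' design text gives 5 ug LPS and 100 ug antibody and the sample records give 5 mg and 100 mg, and neither is assumed here. Nothing in the labels says whether a library is 1 mouse or a pool, so p-values measure only the spread between these libraries, which may be technical.

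A cell leaves the resting state when D cyclins bind CDK4 or CDK6 and phosphorylate the retinoblastoma protein, which releases E2F transcription factors. E2F then drives genes of DNA replication and cyclin E, whose complex with CDK2 carries the cell into S phase. The CIP/KIP inhibitors p27 (Cdkn1b) and p57 (Cdkn1c) and the INK4 inhibitor p18 (Cdkn2c) hold these kinases back, and each is known to restrain the division of hematopoietic stem or progenitor cells.

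The promoters of 3 genes are shown because Ccne1 and Cdkn1b changed in opposite directions with LPS at 24 h, and because Cdk4 was the kinase gene called there. RefSeq promoter windows (GRCm38.p6) matched 6 of the 10 genes. The windows searched run 250 bases upstream of the start, without the 50 bases after it. Bases at the end of a window were cut as long as they lay in a GENCODE exon of the gene. Exon bases further inside were kept, 57 in the Cdk6 window and 13 in a Cdkn2c window. Capitals mark CACGTG, the E-box letters recognised by basic helix-loop-helix factors such as Myc, which read the same on both strands. The sequences run 5′ to 3′ on the strand of the gene, from chr10:127063285-127063533 (plus strand) for Cdk4, chr7:38107535-38107740 (minus strand) for Ccne1 and chr6:134920151-134920400 (plus strand) for Cdkn1b.
Cdk4: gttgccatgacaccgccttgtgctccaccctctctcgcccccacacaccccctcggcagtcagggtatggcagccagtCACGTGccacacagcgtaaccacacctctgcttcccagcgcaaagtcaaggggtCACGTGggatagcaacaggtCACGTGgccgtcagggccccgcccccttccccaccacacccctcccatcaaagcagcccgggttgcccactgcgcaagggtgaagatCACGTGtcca
Ccne1: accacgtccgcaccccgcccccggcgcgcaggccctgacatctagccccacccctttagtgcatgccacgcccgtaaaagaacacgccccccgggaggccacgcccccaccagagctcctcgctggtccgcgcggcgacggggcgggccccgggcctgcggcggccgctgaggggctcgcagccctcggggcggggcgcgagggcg
Cdkn1b: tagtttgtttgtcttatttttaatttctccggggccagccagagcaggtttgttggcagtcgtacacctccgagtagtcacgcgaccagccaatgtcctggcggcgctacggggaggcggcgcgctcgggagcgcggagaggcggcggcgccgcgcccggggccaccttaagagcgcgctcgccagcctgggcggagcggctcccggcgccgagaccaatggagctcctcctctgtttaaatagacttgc
The Cdk4 window held 4 E-boxes. Of 32851 windows of all genes, 6.02% held at least 1 E-box and 0.0213% held at least 4. The window of Cdk6, a gene not called in any comparison, held 1. The windows of Ccne1, Cdkn1b, Cdkn2c and Ccnd3 held none. No window of the 6 genes held the E2F letters TTTGGCGC, TTTCCCGC, TTTGCCGC or TTTCGCGC on either strand, which 1.86% of all windows held, or the STAT letters TTCNNNGAA, which 7.02% held. After the cut at exons a Cdkn2c window had 0 bases left and could hold no match. The Ccne1 window had 206 bases and a Ccnd3 window 219. The shares over all windows were counted on windows of 250 bases without this cut, so they are not matched to the shorter windows. These matches describe the letters of the windows only, and a window without a match says nothing about the factor.

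Levels are in CPM, a gene's count relative to the library's total count after TMM factors have adjusted that total for composition. Total counts ran from 10516722 to 16006001 per library. The first LPS library at 24 h stood apart with a TMM factor of 0.798, while the others lay between 0.947 and 1.12. HSPC markers were present in every library, with a summed level of 11 genes between 1670 and 2500 CPM with PBS and between 1030 and 1190 CPM with LPS at 24 h. Monocyte-macrophage markers (10 genes) summed to 372 to 2580 CPM with PBS and to 130 to 149 CPM with LPS at 24 h. B-lymphoid markers (9 genes) summed to 392 to 1340 CPM and 73.4 to 97.6 CPM in these groups. Over the 17 libraries, neutrophil markers (8 genes) summed to 2350 to 15900 CPM, T and NK cell markers (9 genes) to 51.5 to 266 CPM and dendritic markers (6 genes) to 474 to 1660 CPM. No marker of these lists was at 0 in every library of a group except Cd209d of the dendritic list, with LPS at 24 h and with LPS plus antibody at 72 h. In bulk RNA, fewer cells of a type and less RNA per cell cannot be told apart.

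**Figure D1:**
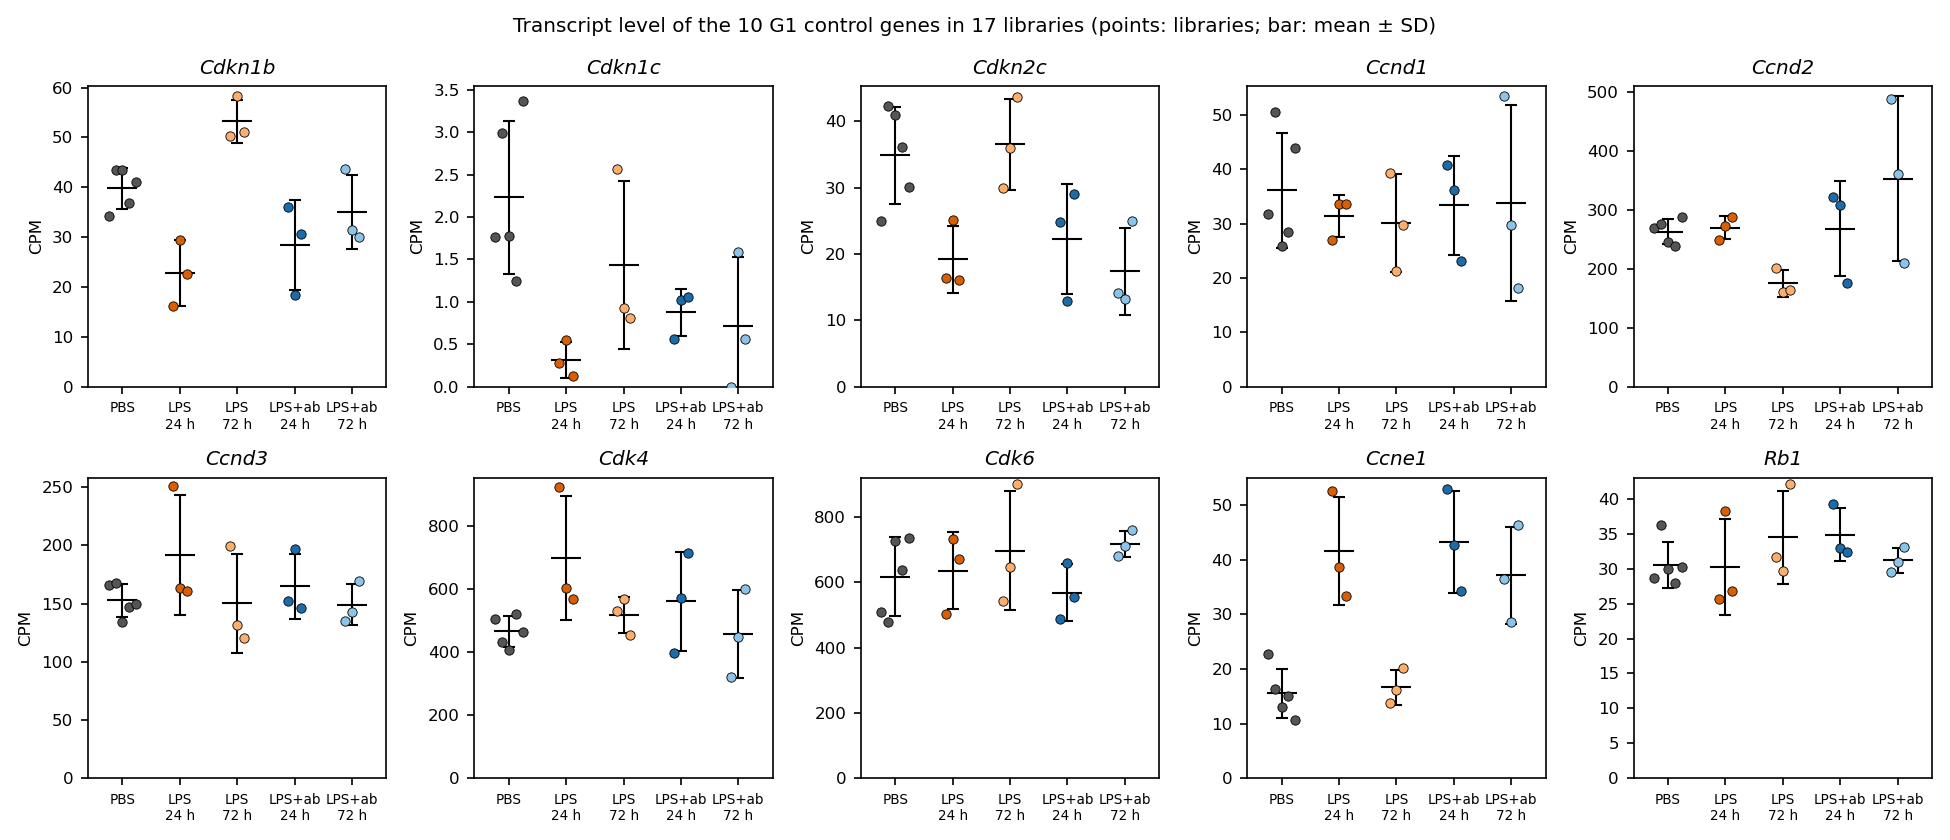
CPM (y axis, from 0) of each of the 10 genes in the 17 libraries by group (x axis; LPS+ab, LPS plus anti-IL-10R). Points are libraries, and the bars give the mean ± SD (n = 5 with PBS, n = 3 in the other groups, lower ends below 0 not drawn). Ccne1 lies between 28.6 and 52.9 CPM in every LPS group except LPS alone at 72 h, against 10.7 to 22.7 CPM with PBS.

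With LPS at 24 h the E cyclin gene Ccne1 and the kinase gene Cdk4 rose, and the inhibitor genes Cdkn1b, Cdkn1c and Cdkn2c fell. Of these 5 changes, only that of Ccne1 was still called without the first LPS library at 24 h. At 72 h after LPS alone none of the 10 genes was called against PBS, whereas with the antibody Ccne1 was higher and Cdkn2c lower than with PBS. Compared directly at 72 h, Ccne1 and Ccnd2 were higher and Cdkn2c lower with the antibody than without it. There were 9 comparisons for each gene. "Called" means an adjusted p below 0.05 in edgeR's quasi-likelihood test with Benjamini-Hochberg adjustment over all 14920 genes. Between LPS at 24 h and PBS 5 of the 10 genes were called, 2 higher and 3 lower, where 37.6% of all tested genes were called, 19.1% higher and 18.5% lower. With the replicate number as a block 3 of the 10 were called there, 1 higher and 2 lower, beside 4163 of all 14920 genes. Between LPS at 72 h and PBS 0 were called by edgeR, 1 had an unadjusted p below 0.05 (11.4% of all genes did), and DESeq2 called 0 and limma voom 2. Of all genes, 0.0201% were called by edgeR in that comparison. Between LPS plus antibody and PBS 1 gene was called at 24 h, higher, where 24.2% of all genes were called, 11.7% higher and 12.5% lower, and 2 at 72 h, 1 higher and 1 lower, where 13.2% were called, 6.81% higher and 6.43% lower. The median log2 change of the 10 genes was 0.01 with LPS at 24 h, beside -0.03 for all genes.

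The labels list no group with a control antibody or with the antibody but no LPS. The antibody's effect here is therefore LPS with it against LPS alone. At 24 h this comparison gave 0 called genes of the 10 by edgeR, by DESeq2 and by voom, and 0 with an unadjusted p below 0.05 (1.83% of all genes did). Of all genes, 0% were called there by edgeR. At 72 h 3 of the 10 were called, 2 higher and 1 lower with the antibody, beside 15.1% of all genes, 8.64% higher and 6.48% lower. Between 24 h and 72 h after LPS alone 3 were called, 2 higher and 1 lower at 72 h, beside 31.1% of all genes, 14.7% higher and 16.4% lower. With the antibody the same interval gave 0 by each of the 3 tools, 0 with an unadjusted p below 0.05 (4.26% of all genes did), and 0% of all genes by edgeR. The test of whether the antibody's effect differed between the times called 0 of the 10 by edgeR, 3 by DESeq2 and 1 by voom, with 4 at an unadjusted p below 0.05 (24.2% of all genes did), and 6.35% of all genes by edgeR. Libraries of the groups compared did not overlap for 42.8% of all genes between LPS at 24 h and PBS, 12% between LPS at 72 h and PBS, 31% and 26.9% between antibody at 24 h or 72 h and PBS, 33.2% for the antibody at 72 h and 45.4% between the LPS groups. These comparisons share libraries: the 4 comparisons with PBS use the same 5 PBS libraries, and each LPS group enters several comparisons.

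**Figure D2:**
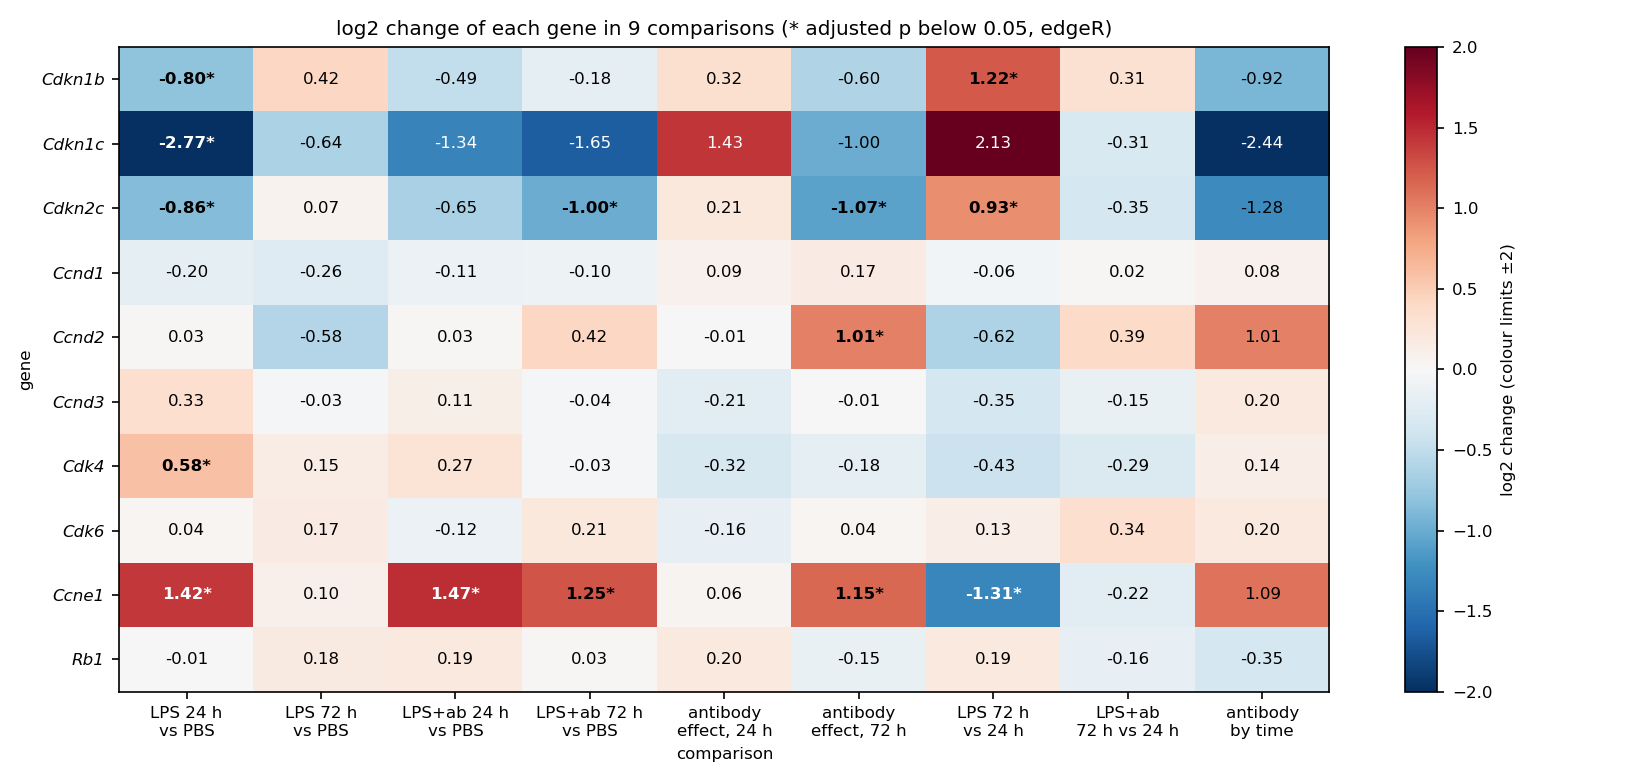
log2 change of each gene (rows) in 9 comparisons (columns), coloured from -2 to 2, with bold values and asterisks where the adjusted p was below 0.05 by edgeR. Antibody effect is LPS plus anti-IL-10R minus LPS at the same time, and antibody by time is the 72 h effect minus the 24 h effect. Ccne1 and the 3 inhibitors hold most of the asterisks, while Ccnd1, Ccnd3, Cdk6 and Rb1 have none.

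Ccne1 encodes cyclin E1, the partner of CDK2 at the start of S phase (chromosome 7, 38097984 to 38107534, minus strand, GRCm38). Its level was 22.7, 16.3, 13.1, 15 and 10.7 CPM in the 5 PBS libraries. With LPS at 24 h it was 52.6, 38.6 and 33.4 CPM, and at 72 h it was 13.7, 16.1 and 20.1 CPM. The 24 h values were all above PBS, and the 72 h values lay inside the PBS range. With LPS plus antibody the level was 52.9, 42.6 and 34.2 CPM at 24 h and 36.4, 28.6 and 46.3 CPM at 72 h. All 6 of these libraries exceeded the highest PBS library, so at 72 h the groups with and without antibody did not overlap.

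Mean Ccne1 was 15.5 ± 4.51 CPM with PBS (SD, n = 5) and 41.5 ± 9.9 CPM after 24 h of LPS (SD, n = 3). This rise was 2.67-fold, or 1.42 on the log2 scale (SE 0.232), with an adjusted p of 0.000666 by edgeR. With antibody it rose by 1.47 at 24 h (SE 0.232, edgeR adjusted p = 0.00355) and by 1.25 at 72 h (SE 0.233, edgeR adjusted p = 0.00791) on the log2 scale. Each of these 3 increases was called with any 1 library of the groups compared left out and under the 8 other settings tried. After LPS alone, Ccne1 fell between 24 h and 72 h by 1.31 on the log2 scale (SE 0.27, edgeR adjusted p = 0.00234), and its difference from PBS at 72 h was 0.10 (95% interval -0.42 to 0.63). At 72 h the level with antibody was 2.22-fold that without it, a log2 difference of 1.15 (SE 0.27, edgeR adjusted p = 0.0116). That call was lost without the first LPS library at 72 h, at a log2 difference of 1.03 (edgeR adjusted p = 0.0666). At 24 h the antibody's effect was 0.06 (95% interval -0.51 to 0.63). The difference between the antibody's effects at the 2 times was 1.09 (SE 0.376) and did not pass (edgeR unadjusted p = 0.0104, adjusted p = 0.0896).

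Cdkn1b encodes p27, a broad inhibitor of cyclin-CDK complexes (chromosome 6, 134920401 to 134925513, plus strand). It stood at 34.3, 43.4, 43.4, 36.8 and 41.1 CPM with PBS. With LPS it stood at 16.2, 29.4 and 22.7 CPM at 24 h and at 50.3, 58.2 and 51.1 CPM at 72 h. Every 24 h library lay below, and every 72 h library above, all PBS libraries. With LPS plus antibody Cdkn1b was at 36.1, 18.4 and 30.7 CPM at 24 h and at 43.6, 31.5 and 30.1 CPM at 72 h, and both groups overlapped PBS.

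Mean Cdkn1b was 39.8 ± 4.07 CPM with PBS (SD, n = 5) and 22.8 ± 6.58 CPM after 24 h of LPS (SD, n = 3). This fall was 1.74-fold, or -0.80 on the log2 scale (SE 0.216), with an adjusted p of 0.00958 by edgeR. Without the first LPS library at 24 h the change was -0.60 and was no longer called (edgeR adjusted p = 0.0721). Between 24 h and 72 h after LPS alone it rose 2.33-fold, or by 1.22 on the log2 scale (SE 0.238, edgeR adjusted p = 0.00164). This call held with any 1 library of the groups compared left out. At 72 h against PBS the change of 0.42 was not called by edgeR (adjusted p = 0.454) and was called by voom (0.46, adjusted p = 0.0333). With the antibody the change from PBS was -0.49 at 24 h (SE 0.213, edgeR adjusted p = 0.105), and voom called it (-0.71, adjusted p = 0.0156). At 72 h all antibody libraries were below all libraries with LPS alone, with a log2 difference of -0.60 (SE 0.235, edgeR adjusted p = 0.0913). Voom called this difference as well (-0.76, adjusted p = 0.00391).

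Cdkn2c encodes p18, an INK4 protein that binds CDK4 and CDK6 (chromosome 4, 109660876 to 109667189, minus strand). With PBS it was at 25, 42.4, 40.9, 36.2 and 30.1 CPM. With LPS it was at 16.4, 25.1 and 16.1 CPM at 24 h and at 30, 36 and 43.7 CPM at 72 h. The 24 h group overlapped PBS by 1 library, and the 72 h libraries lay within the PBS range or, for 1, just above it. With antibody it was at 24.8, 13 and 29.1 CPM at 24 h and at 14.1, 13.2 and 25 CPM at 72 h. At 72 h the antibody libraries lay below every library with LPS alone, and the highest of them was at the level of the lowest PBS library.

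Cdkn2c fell by 0.86 on the log2 scale with LPS at 24 h (SE 0.284, edgeR adjusted p = 0.0266) and rose by 0.93 from 24 h to 72 h (SE 0.311, edgeR adjusted p = 0.0335). With LPS plus antibody at 72 h it was 2-fold lower than with PBS (SE 0.286 on the log2 scale, edgeR adjusted p = 0.0342) and 2.09-fold lower than with LPS alone (log2 difference -1.07, SE 0.312, edgeR adjusted p = 0.0324). All 4 calls depended on single libraries. With 1 library left out at a time, the 24 h change ran from -1.10 to -0.74 (edgeR adjusted p up to 0.121) and was not called without PBS library 2 or 3 or LPS library 1 or 3 at 24 h. With the replicate block it was -0.87 and was not called (edgeR adjusted p = 0.0517). The antibody difference at 72 h ran from -1.42 to -0.86 (edgeR adjusted p up to 0.122) and was called in 1 of 6 such fits, the one without the third antibody library. It was not called either when only the groups compared were fitted (-1.03, edgeR adjusted p = 0.0629). The change from 24 h to 72 h was called in 2 of 6 (0.76 to 1.17, edgeR adjusted p up to 0.12), not without LPS library 1 or 3 at 24 h or 2 or 3 at 72 h. The antibody group at 72 h against PBS was called in 3 of 8 (-1.35 to -0.81, edgeR adjusted p up to 0.121), not without PBS library 2, 3 or 5 or antibody library 1 or 2. With antibody at 24 h against PBS it was not called by edgeR and was called by voom (-0.89, adjusted p = 0.0361).

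Cdkn1c encodes p57, the other CIP/KIP inhibitor of the 10 genes and an imprinted gene (chromosome 7, 143458339 to 143461050, minus strand). It was the least abundant of the 10, with 28, 38, 31, 20 and 48 counts in the PBS libraries, or 1.76, 2.99, 1.78, 1.25 and 3.37 CPM. With LPS it had 3, 8 and 2 counts at 24 h (0.278, 0.549 and 0.128 CPM) and 28, 11 and 11 counts at 72 h (2.57, 0.93 and 0.805 CPM). The 24 h libraries were all below PBS, and the 72 h libraries overlapped it. With antibody the counts were 8, 13 and 13 at 24 h (0.56, 1.02 and 1.06 CPM) and 0, 17 and 8 at 72 h (0, 1.59 and 0.566 CPM). The library with 0 counts allows a level of up to 0.252 CPM, the value of 3 counts there, which covers counting error only.

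Cdkn1c fell by 2.77 on the log2 scale with LPS at 24 h (SE 0.784, edgeR adjusted p = 0.0124). Pooled over libraries, 13 counts with LPS stood against 165 with PBS, and the scaled level was 6.83-fold higher with PBS (95% exact interval 3.88 to 13.1, counting error only). The call was lost without the first LPS library (-2.68, edgeR adjusted p = 0.0543) or the third (-2.36, edgeR adjusted p = 0.0588). No other comparison called Cdkn1c. Its changes from PBS with antibody were -1.34 at 24 h (SE 0.69, edgeR adjusted p = 0.166) and -1.65 at 72 h (SE 0.715, edgeR adjusted p = 0.127). The difference between 72 h and 24 h after LPS alone was 2.13 (SE 0.845, edgeR adjusted p = 0.0667), and it was called by DESeq2 (2.16, adjusted p = 0.0331) and by voom (2.39, adjusted p = 0.0416). An antisense gene, Gm44732, shares 625 exonic bases with Cdkn1c and averaged 0.669 ± 0.238 CPM in the PBS libraries (SD, n = 5) and 0.113 ± 0.144 CPM at 24 h after LPS (SD, n = 3). Whether counting used strand is not given in the sources used here, so reads of the pair cannot be told apart.

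HSPC and monocyte-macrophage markers moved in the same comparison as the inhibitors. Between LPS at 24 h and PBS, 7 of 11 HSPC markers and 10 of 10 monocyte-macrophage markers were called lower. Of all genes, 18.5% were called lower there. Among the other lists, 3 of 9 B-lymphoid, 2 of 9 T and NK, 1 of 10 erythroid and 0 of 8 neutrophil markers were called lower. Of 5 dendritic markers tested, 3 were called lower and 1 higher. No HSPC marker was called higher, though mean Ly6a went from 61.7 to 162 CPM and mean Gata2 from 67.5 to 101 CPM. From 24 h to 72 h after LPS alone 6 of 11 HSPC markers were called higher, beside 14.7% of all genes. Of the monocyte-macrophage markers, 1 of 10 was called higher over that interval. The summed HSPC level at 72 h was 1680 to 2290 CPM with LPS alone and 1110 to 1850 CPM with antibody. The first antibody library was the highest of its group, at 1850 CPM, but its markers went opposite ways. It had the group's highest Ly6a (632 CPM) and Kit (589 CPM) and its lowest Cd34 (340 CPM) and Flt3 (71.4 CPM). The part of these markers in the changes of the inhibitors was not tested. For Cdkn1b, Cdkn2c and Ccne1 the annotation showed no overlapping exons of another gene.

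The counts of Ccne1 and Cdkn1b in the same library give a ratio that does not depend on library scaling. With PBS it was 0.401 ± 0.157 Ccne1 counts per Cdkn1b count (SD, n = 5), and at 72 h after LPS 0.315 ± 0.0687 (SD, n = 3). With LPS at 24 h it was 2.01 ± 1.07, and with antibody 1.63 ± 0.621 at 24 h and 1.09 ± 0.388 at 72 h (SD, n = 3 each). The 9 libraries of these 3 groups ran from 0.834 to 3.24, and the 8 libraries with PBS or with LPS at 72 h ran from 0.259 to 0.661, so the ranges did not meet. The ratio joins genes already described and is given without a test.

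**Figure D3:**
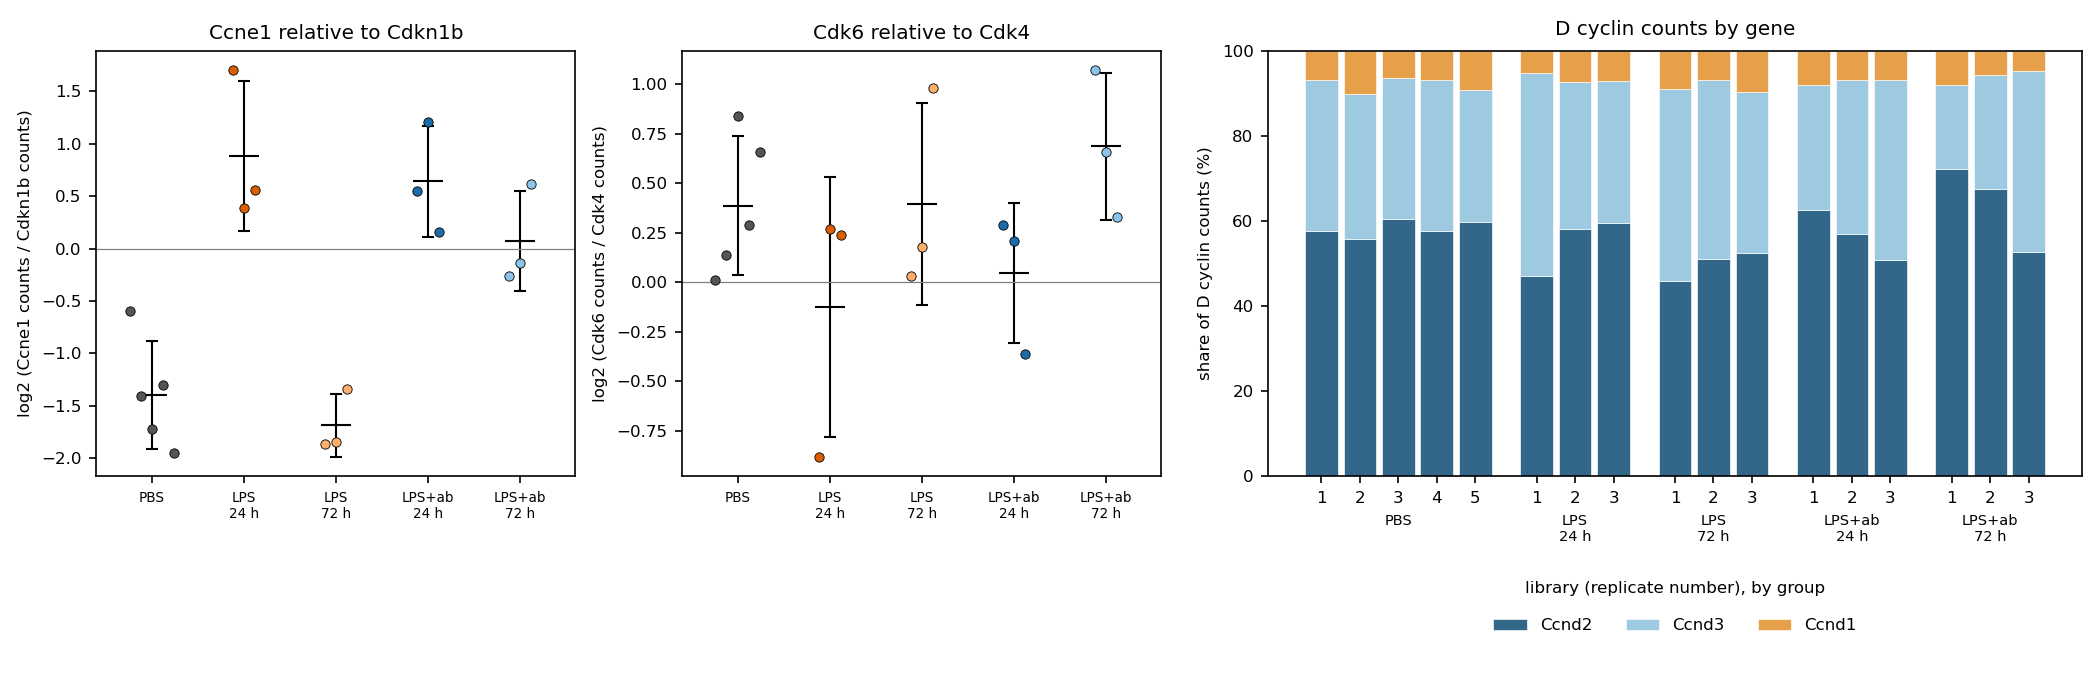
Left and middle, log2 of the ratio of Ccne1 to Cdkn1b counts and of Cdk6 to Cdk4 counts (y axes) in each library by group, with mean ± SD bars and a grey line at a ratio of 1. Right, the share of D cyclin counts (%) from Ccnd2, Ccnd3 and Ccnd1 in each library (bars, numbered by replicate). The Ccne1 ratio separates LPS at 24 h and both antibody groups from PBS and LPS at 72 h, the Cdk6 ratio with antibody at 72 h lies above both 24 h groups while its other group ranges overlap, and Ccnd2 takes 45.8% to 72.2% of D cyclin counts.

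The D cyclins are the growth-factor-responsive partners of CDK4 and CDK6. Per kilobase of exon, Ccnd2 was the most abundant with PBS at 27.9 ± 2.19 CPM per kb (SD, n = 5), followed by Ccnd3 at 17.4 ± 1.61 and Ccnd1 at 7.67 ± 2.25. In counts, Ccnd2 made up 55.8% to 60.6% of D cyclin reads in the PBS libraries, Ccnd3 31.2% to 35.6% and Ccnd1 6.37% to 10.2%. With LPS at 72 h the Ccnd2 share was 45.8% to 52.4%, below every PBS library. With antibody at 72 h it spread from 52.8% to 72.2%.

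Ccnd2 (chromosome 6, 127125162 to 127152193, minus strand) stood at 269, 275, 245, 238 and 287 CPM with PBS and at 248, 273 and 287 CPM with LPS at 24 h. With LPS at 72 h it stood at 201, 160 and 164 CPM, below all PBS libraries. With antibody it stood at 321, 308 and 175 CPM at 24 h and at 488, 361 and 209 CPM at 72 h. The antibody libraries at 72 h were all above those with LPS alone, and the lowest of them was below every PBS library.

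At 72 h Ccnd2 was 2.01-fold higher with the antibody than without it, a log2 difference of 1.01 (SE 0.253, edgeR adjusted p = 0.0159). The call was lost without the first antibody library at 72 h (0.74, edgeR adjusted p = 0.0681) and without the second LPS library at 72 h (0.95, edgeR adjusted p = 0.0626), as well as with only the groups compared (1.05, edgeR adjusted p = 0.0742). Neither group differed from PBS by edgeR at 72 h, at -0.58 with LPS alone (SE 0.229, adjusted p = 0.37) and 0.42 with antibody (SE 0.221, adjusted p = 0.202). Voom called the first of these (-0.60, adjusted p = 0.0196). The change from 24 h to 72 h after LPS alone was -0.62 (SE 0.252, edgeR adjusted p = 0.0724), and DESeq2 (-0.62, adjusted p = 0.0481) and voom (-0.70, adjusted p = 0.00395) called it. The difference between the antibody's effects at the 2 times was 1.01 (SE 0.355, edgeR adjusted p = 0.0956).

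The order of Ccnd2 over the antibody libraries at 72 h was also that of the summed erythroid markers, at 813, 215 and 62.4 CPM. At 24 h these markers were at 1480, 385 and 114 CPM, again in the order of Ccnd2. Neutrophil markers ran in the reverse order in the antibody groups. They were at 4080, 9720 and 10900 CPM at 24 h and at 3270, 9060 and 11100 CPM at 72 h. T and NK cell markers also ran in reverse at both times. HSPC markers followed Ccnd2 at 72 h only, at 1850, 1550 and 1110 CPM. B-lymphoid and dendritic markers followed it at 24 h only, and monocyte-macrophage markers at neither time. With LPS alone at 72 h the erythroid markers were at 291, 149 and 69.6 CPM, an order that Ccnd2 (201, 160 and 164 CPM) did not share. With LPS alone at 24 h they were at 586, 340 and 646 CPM, and with PBS at 567, 394, 503, 379 and 559 CPM. Ccnd2 did not share these orders either. None of the 10 erythroid markers was called for the antibody's effect at 72 h. The part of any of these lists in the Ccnd2 difference was not tested. Without both antibody libraries numbered 1 the Ccnd2 difference at 72 h was 0.74 (edgeR adjusted p = 0.0548). The antisense genes 9330179D12Rik and Gm43126 share 368 and 372 exonic bases with Ccnd2.

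Ccnd3 (chromosome 17, 47505051 to 47599691, plus strand) was not called in any comparison. It stood at 166, 168, 134, 147 and 150 CPM with PBS and at 251, 163 and 161 CPM with LPS at 24 h. The value of 251 came from the library with the lowest TMM factor. The other groups ran from 120 to 199 CPM, and all overlapped PBS. The log2 change with LPS at 24 h was 0.33 (95% interval -0.07 to 0.72). Bysl shares 361 exonic bases with Ccnd3 on the opposite strand.

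Ccnd1 (chromosome 7, 144929931 to 144939925, minus strand) was not called in any comparison either. It ran from 25.8 to 50.5 CPM with PBS (median 31.8) and from 18.2 to 53.4 CPM over the other groups. The spread within groups was wide, and the group means, between 30.1 and 36.1 CPM, spanned less than the libraries of each group did. The antibody's effect at 72 h was 0.17, with a 95% interval from -0.60 to 0.93. LTO1 overlaps 1100 of its exonic bases on the opposite strand.

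Cdk4 and Cdk6 are the kinases that D cyclins activate. Per kilobase of exon Cdk4 was the most abundant of the 10 transcripts with PBS, at 144 ± 14.9 CPM per kb (SD, n = 5), and Cdk6 followed at 44.1 ± 8.58. Cdk4 (chromosome 10, 127063534 to 127067920, plus strand) stood at 507, 434, 406, 521 and 466 CPM with PBS and at 925, 605 and 568 CPM with LPS at 24 h. The LPS libraries lay above all PBS libraries. With LPS at 72 h Cdk4 stood at 532, 570 and 456 CPM. With antibody it spread from 399 to 714 CPM at 24 h and from 323 to 602 CPM at 72 h, on both sides of the PBS range.

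Cdk4 rose 1.5-fold with LPS at 24 h, or by 0.58 on the log2 scale (SE 0.212, edgeR adjusted p = 0.0414). The call did not hold with upper-quartile factors (0.45, edgeR adjusted p = 0.0968), under which the median change over all tested genes was -0.16 in place of -0.03. With the replicate block it was 0.64 and was not called (edgeR adjusted p = 0.098). Among the more abundant genes alone it was 0.42, also not called (edgeR adjusted p = 0.0915). Without the first LPS library at 24 h the change was 0.34 (edgeR adjusted p = 0.272), and leaving out PBS library 2, 3 or 5 ended the call at changes of 0.56, 0.54 and 0.58 (edgeR adjusted p = 0.079, 0.0764 and 0.0633). With antibody at 24 h the change was 0.27 (95% interval -0.20 to 0.73). Tspan31 shares 641 exonic bases with Cdk4 on the opposite strand and averaged 64 ± 7.97 CPM in the PBS libraries (SD, n = 5) and 96.1 ± 28.8 CPM at 24 h after LPS (SD, n = 3).

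Cdk6 (chromosome 5, 3341485 to 3531008, plus strand) was not called in any comparison. It ran from 478 to 736 CPM with PBS (median 636), and the other groups lay between 487 and 899 CPM. Its change with LPS at 24 h was 0.04 (95% interval -0.37 to 0.45). Cdk6 counts per Cdk4 count in the same library averaged 0.978 ± 0.376 with LPS at 24 h (SD, n = 3), 1.65 ± 0.424 with antibody at 72 h (SD, n = 3) and 1.34 ± 0.332 with PBS (SD, n = 5). The lowest library with antibody at 72 h, at 1.26, lay above the highest at 24 h with LPS (1.21) or with LPS plus antibody (1.22), and all other pairs of groups overlapped. The ratio is given without a test.

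Rb1 encodes the retinoblastoma protein that the D cyclin kinases phosphorylate (chromosome 14, 73183673 to 73325822, minus strand). It stood at 28.6, 36.2, 29.9, 27.9 and 30.2 CPM with PBS, and the other 12 libraries lay between 25.7 and 42.1 CPM. No comparison called it, and its range of group means was the narrowest of the 10 genes at 0.22 on the log2 scale. The largest of its log2 differences between 2 groups was 0.20, for the antibody at 24 h (95% interval -0.17 to 0.58). The widest ranges of group means were those of Cdkn1c at 2.37, Ccne1 at 1.49, Cdkn1b at 1.26 and Cdkn2c at 1.11.

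The order of transcript levels per kilobase with PBS was Cdk4, Cdk6, Ccnd2, Ccnd3, Cdkn2c, Cdkn1b, Ccnd1, Ccne1, Rb1 and Cdkn1c. The last of these was at 1.09 ± 0.443 CPM per kb (SD, n = 5). Neighbours from Cdkn1b (8.74 ± 0.898) through Ccnd1 (7.67 ± 2.25) to Ccne1 (5.85 ± 1.7) and Rb1 (5.08 ± 0.547) differed by less than the sum of their SDs. With LPS at 24 h Ccne1 was at 15.6 ± 3.73 CPM per kb (SD, n = 3), above Cdkn2c at 7.15 ± 1.9 and Cdkn1b at 5 ± 1.45.

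A list of 40 other genes of G1 and S-phase control gave 38 genes with enough counts. The INK4 genes Cdkn2a and Cdkn2b had too few counts to test, and the CIP/KIP gene Cdkn1a was at 18.4 ± 2.74 CPM with PBS (SD, n = 5) and 25.7 ± 9.7 CPM with LPS at 24 h (SD, n = 3), a change that was not called (log2 0.48, edgeR adjusted p = 0.3). With LPS at 24 h 10 of the 38 were higher and 7 lower (44.7% called, beside 37.6% of all genes), with a median log2 change of 0.14 beside -0.03 for all genes. The greatest increases were those of Ccne2, the other E cyclin (0.96, SE 0.209, edgeR adjusted p = 0.00291), E2f4, an E2F of resting cells (0.91, SE 0.139), and Cdk7, the kinase that activates CDKs (0.69, SE 0.135). The greatest decreases were those of Mycn (-1.79, SE 0.423), the forkhead factor Foxo1 (-1.25, SE 0.296) and the E2F partner Tfdp2 (-1.08, SE 0.302). Ccne2 thus moved with Ccne1, at 23.5 ± 3.71 CPM with PBS (SD, n = 5) and 45.8 ± 5.3 CPM with LPS (SD, n = 3).

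With LPS at 72 h 0 of the 38 were called against PBS by edgeR (2 at an unadjusted p below 0.05). With antibody, 8 were higher and 4 lower than with PBS at 24 h, and 2 higher and 3 lower at 72 h. These were 31.6% of the 38 at 24 h, beside 24.2% of all genes, and 13.2% at 72 h, the same share as over all genes. E2f4 and Cul1, the scaffold of SCF ubiquitin ligases, were the 2 called higher at 72 h, at log2 changes of 0.47 and 0.37 (edgeR adjusted p = 0.0381 and 0.0441). Mycn (-1.41), Foxo4 (-0.65) and Foxo3 (-0.58), a factor of stem cell quiescence, were lower there. From 24 h to 72 h after LPS alone 6 were higher, led by Foxo1 (0.98), E2f2 (0.92) and Foxo3 (0.65), and 9 lower (39.5% called, beside 31.1% of all genes), led by E2f4 (-1.16), Myc (-0.88) and Ccne2 (-0.88).

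The antibody's effect gave 0 of the 38 at 24 h by edgeR, with 0 at an unadjusted p below 0.05. At 72 h 4 were higher and 1 lower (13.2% called, beside 15.1% of all genes). They included E2f4 (0.72, SE 0.16, edgeR adjusted p = 0.00897), Myc (0.69, SE 0.225), the DREAM complex gene Lin54 (0.64, SE 0.208) and, lower, Foxo4 (-0.64, SE 0.158). At 72 h E2f4 stood at 83.5 ± 2.64 CPM with LPS alone and 138 ± 8.45 CPM with antibody (SD, n = 3 each), beside 99.1 ± 14.9 CPM with PBS (SD, n = 5). The test of a different antibody effect at the 2 times called 2 of the 38 (5.26%, beside 6.35% of all genes), E2f4 (0.88, SE 0.225, edgeR adjusted p = 0.0334) and Cul1 (0.65, SE 0.18, edgeR adjusted p = 0.0442).

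Genes of DNA replication follow cyclin E in the cycle, and genes of mitosis come later. Of 20 S-phase genes, 15 were higher with LPS at 24 h than with PBS (median log2 change 0.51), 9 with antibody at 24 h (0.38) and 3 with antibody at 72 h (0.25). These were 75%, 45% and 15% of the list, where 19.1%, 11.7% and 6.81% of all genes were called higher. From 24 h to 72 h after LPS alone 12 were lower (-0.45), 60% of the list, where 16.4% of all genes were called lower. Their summed level was 4110 to 4950 CPM with PBS, 5980 to 7290 CPM with LPS at 24 h and 4500 to 4910 CPM with LPS at 72 h. With antibody it was 5170 to 6860 CPM at 24 h and 4780 to 6400 CPM at 72 h. Of 20 G2/M genes, 2 were higher with LPS at 24 h (10%, beside 19.1% of all genes; 1 with the replicate block) and 0 in the other comparisons with PBS, and their summed level overlapped between all groups, from 3150 to 5510 CPM. In the S-phase sums the first antibody library was the lowest of its group at both times.

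**Figure D4:**
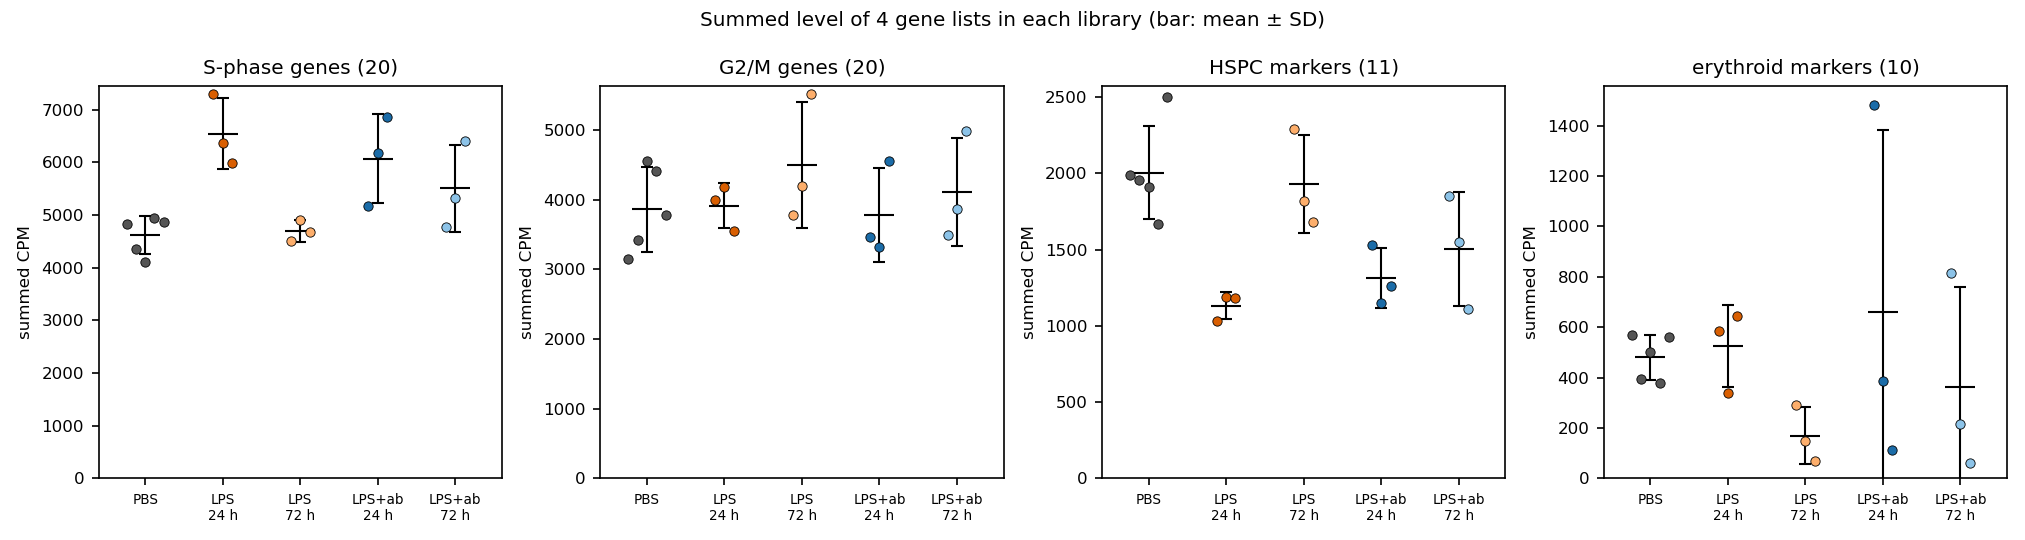
Summed CPM (y axis, from 0) of 20 S-phase genes, 20 G2/M genes, 11 HSPC markers and 10 erythroid markers in each library by group (x axis), with mean ± SD bars (lower ends below 0 not drawn). The S-phase sum of every LPS library at 24 h exceeds all PBS libraries. The HSPC sum has its lowest group median with LPS at 24 h, and the erythroid sum spans 114 to 1480 CPM within the antibody group at 24 h.

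For the 3 genes with the widest range of group means, the tested genes with the most similar pattern over the 17 libraries were looked up by the mean absolute difference of log2 CPM after each gene's own mean was subtracted. Nearest to Ccne1 were Mthfd2, an enzyme of mitochondrial folate metabolism (0.15), Ctsz (0.21) and Etf1 (0.22). Nearest to Cdkn1b were Hbp1, a repressor of cell cycle genes (0.09), Spata6 (0.10) and Zfp810 (0.12). Nearest to Cdkn1c were Gm15411 (0.34), Tox (0.37) and Samd12 (0.38).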

How the data were processed

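The authors deposited 1 table of raw counts, whole-number reads per gene symbol in 17 libraries. The submitters' processing notes name HISAT2 2.2.0, Subread, featureCounts 2.1.1, R 4.3.2, DESeq2 and the build GRCm38, without roles. The annotation, strandedness and treatment of multiply mapped reads are not given in the sources used here. Groups came from the sample titles. The genes and lists were chosen with earlier results of these data known.

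Counts were fitted in edgeR 4.0.16 (R 4.3.3) with TMM factors, filterByExpr (minimum count 10, minimum total count 15; 14920 genes holding 99.9% of counts) and quasi-likelihood tests over all 17 libraries, without covariates. Standard errors were derived from the F statistic and are approximate. The script was tested on simulated counts. Gene positions and exon lengths came from GENCODE M21, promoter windows from RefSeq. No pair of libraries within a group held identical counts. Same-numbered libraries were treated as possible pairs for LPS at 24 h against PBS. Their deviations from the group means correlated at 0.191, 0.188 and 0.158 for the numbers 1, 2 and 3. The main test left such pairs out of the model, and the replicate block included them. No other pair of groups had all 3 correlations over 0.1, though those between the antibody groups were 0.723, -0.0217 and 0.697. The labels name no shared mouse, batch or day. Of the other G1 and S-phase genes, up to 3 called genes with the greatest changes in each direction were named per comparison.

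Alternatives were DESeq2's size factors, upper-quartile factors, the DESeq2 1.42.0 Wald test, voom with sample quality weights (limma 3.58.1), a fit without the low-count filter, a fit of the more abundant genes only, only the groups compared, a replicate block, and each library left out. Single libraries were left out only from the groups of the comparison concerned. Leaving out pairs of libraries that stood apart was chosen after seeing the data.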

Additional observations from a re-analysis of the deposited data

Results flagged for a closer look

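Rb1 in the second PBS library, at 36.2 CPM, lay far from the other 4 PBS libraries, which were between 27.9 and 30.2 CPM. The 10 genes were examined in this way in the PBS group, the only group with more than 3 libraries, and chance flags about 1 in 20 groups. The same library had the highest summed monocyte-macrophage markers of its group, 2580 CPM, and the part of these in the Rb1 value was not tested.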

How the results depend on the processing

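Of 1570 values of single genes recomputed under other settings, 1375 kept their direction and their side of the threshold, 44 lost a call and 26 gained one, without a change of sign. The other 125 were not called under either setting and changed sign, from log2 changes of at most 0.31 in size. For LPS at 24 h against PBS the 5 called genes became 3 among the more abundant genes (Cdkn1c was not among these genes, and Cdk4 was not called) and 3 with the replicate block. They became 1 without LPS library 1 at 24 h, and also 1 without both that library and PBS library 2 (chosen after seeing the data). With each library left out the count was 1 to 5. For LPS at 72 h against PBS voom called 2 in place of 0. For antibody at 24 h against PBS the count of 1 became 3 by voom, 2 with only the groups compared and 2 without both antibody libraries numbered 1 (chosen after seeing the data). For antibody at 72 h against PBS the count of 2 became 1 with the replicate block, 1 under either pair left out, and 1 to 2 with each library left out. For the antibody effect at 72 h the count of 3 became 4 by voom and 1 with only the groups compared. It became 1 without both antibody libraries numbered 1, and 1 to 3 with each library left out. For LPS at 72 h against 24 h the count of 3 became 5 by DESeq2, by voom, with only the groups compared and without both antibody libraries numbered 1, and 2 to 4 with each library left out. For the antibody effect over time the count of 0 became 3 by DESeq2, 1 by voom, 1 among the more abundant genes, and 0 to 2 with each library left out. The cause of these shifts was not tested.

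Over all groups 14 of 30 same-numbered pairs of libraries had a correlation of deviations over 0.1, in a range from -0.415 to 0.723. In every comparison, LPS at 24 h against PBS included, the labels give the libraries only a shared number. With the replicate block Cdkn2c (-0.87, edgeR adjusted p = 0.0517) and Cdk4 (0.64, edgeR adjusted p = 0.098) were not called for LPS at 24 h, nor Cdkn2c (-1.07, edgeR adjusted p = 0.0684) for antibody at 72 h against PBS, and the block changed no other call of the 10 genes. Counts over all genes moved too. For LPS at 24 h against PBS, 5616 became 3112 among the more abundant genes, 4163 with the block and 3361 without LPS library 1. For LPS at 72 h against PBS, 3 became 178 by DESeq2, 2170 by voom, 99 with only the groups compared and 0 with the block. For antibody at 24 h against PBS, 3605 became 1880 among the more abundant genes, 1721 with the block and 877 without the second antibody library at 24 h. It became 4211 by voom, 4143 with only the groups compared and 3584 without both antibody libraries numbered 1. For antibody at 72 h against PBS, 1975 became 3053 by voom, 1090 among the more abundant genes, 374 with the block and 583 without the third antibody library at 72 h. For the antibody effect at 72 h, 2256 became 4433 by voom, 1123 with only the groups compared and 769 without the first LPS library at 72 h. For LPS at 72 h against 24 h, 4646 became 2872 among the more abundant genes. It became 5142 by DESeq2, 6955 by voom, 3793 with only the groups compared and 5472 without both antibody libraries numbered 1. For the antibody effect over time, 947 became 1709 by DESeq2, 1585 by voom, 617 without the filter, 333 with the block, 286 with only the groups compared and 231 without the first LPS library at 72 h. DESeq2 called 1 gene for the antibody effect at 24 h and 2 between the antibody groups, against 0 and 0. Under upper-quartile factors the median change over all tested genes was -0.16 on the log2 scale for LPS at 24 h against PBS, -0.11 and -0.10 for the antibody groups at 24 h and 72 h against PBS, and 0.13 between 72 h and 24 h after LPS alone. Low counts limit Cdkn1c, where 1 library at 0 counts allows up to 0.252 CPM.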
